A study of Mus musculus with 16 samples.

Results

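Tcf7l2, Prkcd, Slc17a6, Lef1, Ramp3 and Rora are markers of thalamic neurons, and their RNA was followed here in 16 dissections labelled as striatum. The members are the array's probe sets that name 1 of these 6 genes and no other in the platform's probe-to-gene table. They comprise 15 of 45037 probe sets and 6 of the 17097 genes that have a probe set of their own. Tcf7l2 had 4 probe sets, Prkcd 2, Slc17a6 2, Lef1 1, Ramp3 1 and Rora 5.

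The thalamus is the relay station of the forebrain, sends glutamatergic axons to cortex and striatum, and lies behind and medial to the striatum. Its neurons load synaptic vesicles mainly with the transporter VGLUT2, and many of them keep the Wnt effector Tcf7l2 switched on in the adult, whereas projection neurons of the striatum are GABAergic and need neither. The 6 genes are therefore used to mark thalamic tissue, although some of them are also expressed at lower levels in other forebrain cells.

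Total RNA was taken from male mice aged 7 to 8 weeks, and each mouse gave 1 array of an Affymetrix mouse expression platform. The first strain was A/JOlaHsd, called A/J here, and the other DBA/2JRccHsd, called DBA/2J. In both, 4 mice received risperidone, an antipsychotic that blocks dopamine and serotonin receptors, at 1 mg/kg, injected into the peritoneum every day over 3 days. The remaining 4 of each strain carry the label untreated although the protocol common to all samples speaks of saline, so they are called control mice. The labels describe the replicates as biological, and neither cage nor litter is given.

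Levels are log2 values, so 1 unit is a doubling, and 5.66 to 5.71 was the range of the array medians. Probes differ in affinity, so a level was compared mainly between arrays. Between genes it served only as a rough guide to bright and dim probe sets, for example against the array median. The number of arrays, 4 per group, limits the precision.

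Some arrays stood apart. Each array's DBA/2J share was computed from strain marker probe sets, as the position of its signal on a scale from the mean of A/J controls to that of DBA/2J controls. It was 27.9%, 36.2% and 39.1% in A/J risperidone replicates 1, 2 and 4 but 0.584% in replicate 3, while the A/J control arrays lay between -2.30% and 0.993%. DBA/2J risperidone replicate 1 lay at 87.6% and the other DBA/2J arrays between 94.6% and 103.2%. Values for A/J risperidone mice are therefore also given without replicates 1, 2 and 4, which leaves replicate 3 alone. DBA/2J control replicate 4 correlated with the other arrays at 0.970 to 0.979, and the labels give DBA/2J risperidone replicates 2, 3 and 4 the same description code. No pair of arrays held the same values, with at most 2.86% of probe sets equal. By their brightest probe sets, 9 of 10 striatal markers were above the array median in 16 of 16 arrays, among them Drd1 (dopamine receptor of the direct pathway, 5.85 to 6.51). The exception was Drd2 (dopamine receptor of the indirect pathway, 3.62 to 4.90), which was below it in 16 of 16. Of 6 cortical markers 5 were above it in 16 of 16 arrays, such as Tbr1 (8.06 to 8.79) and Neurod2 (8.57 to 9.27), and Emx1 was below it in 15.

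Of the 6 members, Tcf7l2, Lef1 and Rora are transcription factors. Tcf7l2 (GRCm38.p6, chr19:55741797-55933659) and Lef1 (chr3:131110297-131224357) encode HMG-box proteins that recruit beta-catenin to Wnt target genes, and Rora (chr9:68653404-69388246) encodes an orphan nuclear receptor. Slc17a6 (chr7:51621830-51671126) encodes VGLUT2. The signalling members are Prkcd (chr14:30595353-30626414), which encodes protein kinase C delta, and Ramp3 (chr11:6658506-6677478), which encodes a membrane partner of calcitonin-family receptors.

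Because Tcf7l2 and Lef1 bind DNA and the members moved together within groups, the members' promoters were read for the TCF/LEF motif. The motif was searched as CTTTG followed by the letter pair AT, AA, TT or TA, on both strands, in the 250 bases before each transcription start in RefSeq on GRCm38.p6. These 4 spellings cannot overlap one another on a strand. Of 12 member windows from 6 genes, 3 held a match, against 14.8% of 32851 windows in all. A stretch of 100 bases around each match is shown, 5′ to 3′ on the gene's own strand, with the match in capitals; a match marks letters only and is not evidence of binding.

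Tcf7l2, chr19:55895221-55895320, plus strand: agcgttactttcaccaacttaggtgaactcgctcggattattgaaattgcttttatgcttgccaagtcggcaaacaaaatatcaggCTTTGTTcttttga

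Lef1, chr3:131156100-131156199, plus strand: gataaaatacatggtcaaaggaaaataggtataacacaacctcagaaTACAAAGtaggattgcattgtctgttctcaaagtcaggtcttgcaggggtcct

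Prkcd, chr14:30610461-30610560, minus strand: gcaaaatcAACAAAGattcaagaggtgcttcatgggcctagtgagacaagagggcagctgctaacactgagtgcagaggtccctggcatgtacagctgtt

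The Tcf7l2 match began 14 bases before its start, the Lef1 match 147 and the Prkcd match 242. Each lies at a start inside the gene rather than at its outer end, and no match was found in these windows of Slc17a6, Ramp3 and Rora.

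Tcf7l2 varied widely between single mice. Its brightest probe set read 7.23, 5.83, 8.98 and 6.93 in A/J control replicates 1 to 4 and 6.69, 6.89, 7.89 and 7.44 in A/J risperidone replicates 1 to 4. The DBA/2J control mice gave 6.14, 5.92, 5.81 and 6.38, and in DBA/2J risperidone mice 5.98, 6.34, 6.33 and 7.77. The arrays spanned 3.17 log2 units. A/J control replicate 3 was the highest of all arrays, and the lowest A/J control mouse, replicate 2, lay among the DBA/2J control mice, so that the groups overlapped. The other 3 probe sets of Tcf7l2 followed the brightest with r = 0.923, 0.959 and 0.931 over deviations from the group means of the 16 arrays, which share their hybridisations.

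Slc17a6 had the same pair of high mice in A/J control and DBA/2J risperidone. Its levels were 6.78, 6.24, 8.17 and 6.68 in A/J control replicates 1 to 4 and 6.76, 6.90, 7.16 and 7.35 in A/J risperidone. They were 6.66, 6.75, 6.54 and 6.62 in DBA/2J control and 6.43, 6.75, 6.44 and 8.24 in DBA/2J risperidone. DBA/2J risperidone replicate 4 was the highest array for this gene, with A/J control replicate 3 next, and the DBA/2J control mice lay close together, between 6.54 and 6.75. The other probe set of Slc17a6 gave 8.01 and 7.98 on those arrays and at most 7.19 elsewhere.

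Prkcd was read by probe sets of very different range. The brighter, 1442256_PM_at, lay between 5.41 and 6.45 over all 16 arrays and was highest in replicate 3 of both A/J groups. The other, 1422847_PM_a_at, spanned 3.68 log2 units or 12.8-fold. It read 6.30, 5.21, 8.04 and 6.39 in A/J control and 5.34, 5.43, 7.05 and 5.55 in A/J risperidone. In DBA/2J control mice it read 4.61, 4.47, 4.62 and 4.36, and in DBA/2J risperidone mice 5.17, 4.79, 5.22 and 4.82. By this probe set every A/J mouse was above every DBA/2J mouse of the same treatment, and DBA/2J risperidone replicate 4, which was high for Tcf7l2 and Slc17a6, was among the lower arrays of its group.

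Ramp3 had the same high A/J mice. It read 5.92, 5.50, 6.79 and 6.14 in A/J control and 5.58, 5.48, 6.25 and 5.67 in A/J risperidone. In DBA/2J it read 5.61, 5.46, 5.48 and 5.47 in control mice and 5.18, 5.41, 5.30 and 5.27 in risperidone mice, with no high array. Lef1 was dim, below the array median in 16 of 16 arrays, so its values are less certain. It read 4.68, 4.73, 5.43 and 4.90 in A/J control, 4.79, 4.90, 5.01 and 4.61 in A/J risperidone, 4.56, 4.61, 3.80 and 4.70 in DBA/2J control and 4.08, 4.24, 4.25 and 4.63 in DBA/2J risperidone.

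Rora, which other forebrain neurons also express, varied least among the brightest probe sets apart from that of Prkcd, with a span of 1.10 log2 units. It read 8.61, 8.13, 8.97 and 8.30 in A/J control and 8.33, 8.20, 8.49 and 8.28 in A/J risperidone. In DBA/2J control mice it read 8.38, 8.20, 8.20 and 7.89, and in DBA/2J risperidone mice 7.87, 8.14, 8.03 and 8.31. A/J control replicate 3 was again the highest array and the remaining arrays of the groups overlapped. Of the other 4 probe sets, 1436325_PM_at (6.54 to 8.26) and 1436326_PM_at (6.64 to 7.81) were also highest there. The dim 1443443_PM_at (5.14 to 5.56) and 1458145_PM_at (5.22 to 6.11) were not.

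**Figure D1:**
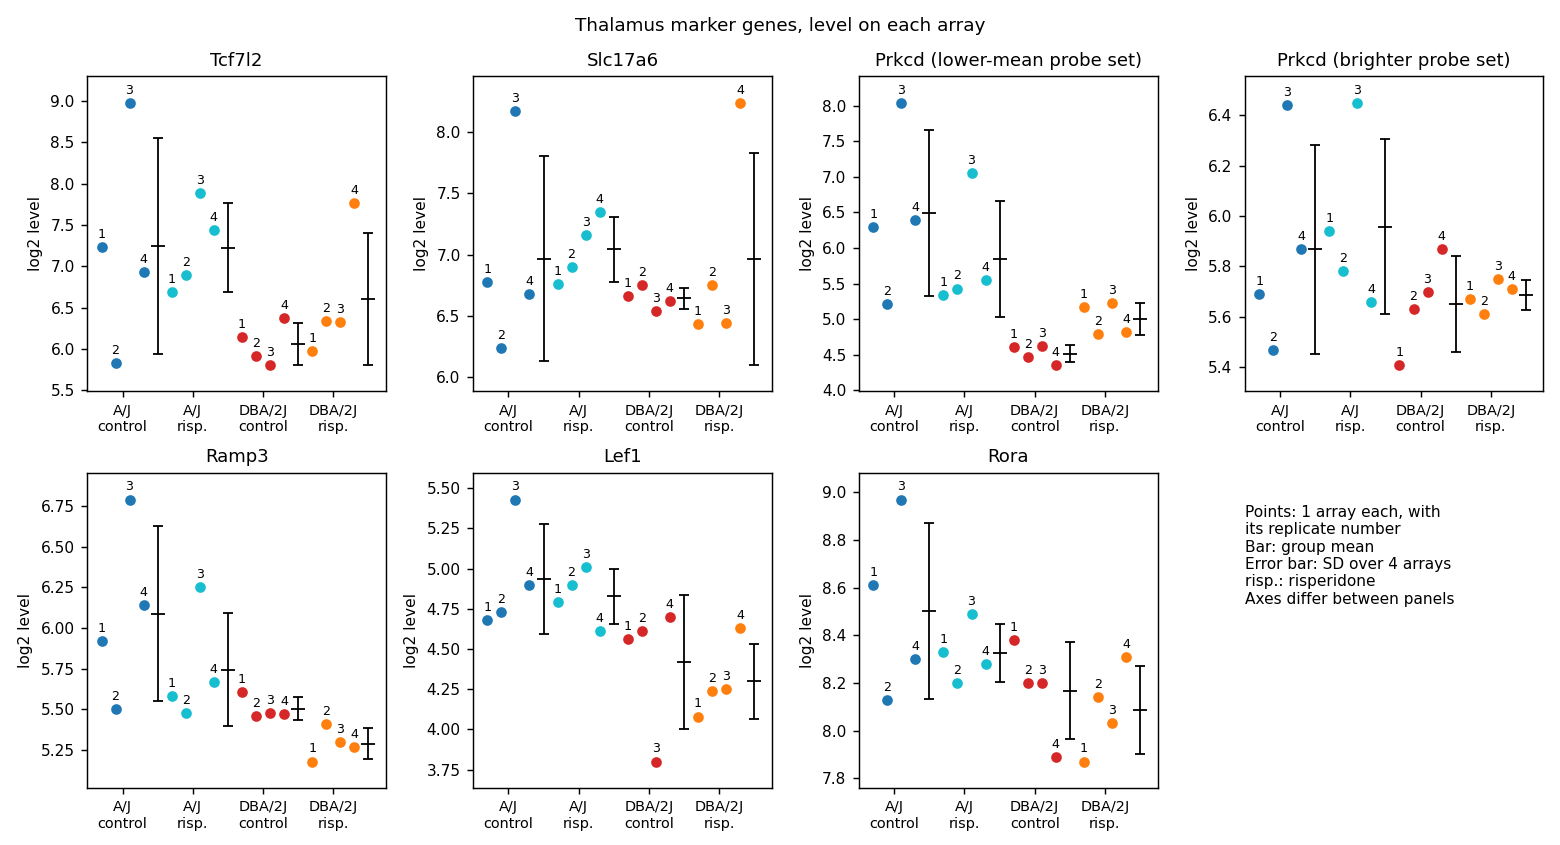
The y axis of each panel is the deposited log2 level of 1 probe set and the x axis the 4 groups; points are single arrays with their replicate number, and the bar and error bar are the mean and SD of 4 arrays. A/J control replicate 3 is the highest A/J control array in every panel, and DBA/2J risperidone replicate 4 is high for Tcf7l2 (7.77) and Slc17a6 (8.24) but not for Ramp3 (5.27).

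The groups' mean levels fell in a similar order for the members. Tcf7l2 averaged 7.24 ± 1.31 (SD, n = 4) in A/J control, 7.23 ± 0.54 in A/J risperidone, 6.61 ± 0.79 in DBA/2J risperidone and 6.06 ± 0.25 in DBA/2J control mice, and no neighbours in that order differed beyond their spread. A/J control mice were also highest for the lower-mean Prkcd probe set, Lef1, Ramp3 and Rora, and A/J risperidone mice for Slc17a6 and the brighter Prkcd probe set. The lowest group was DBA/2J control for Tcf7l2, Slc17a6 and both Prkcd probe sets, and DBA/2J risperidone for Lef1, Ramp3 and Rora.

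The strains were compared first in control mice. All 6 members, each by its brightest probe set, were lower in DBA/2J, and 1 of 6 was called, that is, had a probe set with an adjusted p under 0.05 by limma. Prkcd, by 1422847_PM_a_at, was 3.92-fold lower in DBA/2J (4.515 ± 0.12 SD against 6.485 ± 1.17; log2 difference -1.97 ± 0.42 SE, n = 4 per group, 95% interval -2.85 to -1.09, limma adjusted p = 0.00961). The DBA/2J control values were below the array median in 4 of 4 arrays, as dim as Lef1, so the fold itself is less certain than its direction. The groups did not overlap, and the call stood without each of the 16 arrays in turn, at -2.395 to -1.45 and adjusted p from 0.00127 to 0.0284. Over all genes 5.31% were called and 3.07% were called lower in DBA/2J, the background for this count. The brighter Prkcd probe set differed by -0.215 ± 0.18 (adjusted p = 0.560), and with each gene taken by its brightest probe set alone 0 members were called.

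The other members missed the threshold in control mice. Tcf7l2 was 2.27-fold lower in DBA/2J (-1.18 ± 0.47, limma adjusted p = 0.195), at -0.60 without A/J control replicate 3 and -1.65 without A/J control replicate 2. Ramp3 differed by -0.58 ± 0.20 (limma adjusted p = 0.113) and Lef1 by -0.52 ± 0.19 (0.141). Rora differed by -0.335 ± 0.15 (limma adjusted p = 0.248), and Slc17a6 by -0.325 ± 0.36 (0.680), which became 0.076 without A/J control replicate 3. The median of the 6 differences was -0.43, against -0.0025 over all genes. Of the 15 member probe sets, 13 were lower in DBA/2J, and the 2 that were higher are the dim Rora probe sets, at 0.13 ± 0.09 and 0.38 ± 0.11. An unadjusted p under 0.05 was found for 11 of the 15, 10 lower and 1 higher, against 17.7% of all probe sets. Most of the 11 were probe sets of Tcf7l2 and Rora. Probe sets of 1 gene read the same RNA on the same arrays, so the 15 are not independent.

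Single arrays set how many members were called. Without A/J control replicate 2, the array lowest for Tcf7l2 and the brighter Slc17a6 probe set among A/J mice, 4 members were called: Tcf7l2 (limma adjusted p = 0.0464), Ramp3 (0.0217), Rora by 1436326_PM_at (0.0324) and Prkcd. Without DBA/2J control replicate 1, 2 were called, Prkcd and Rora, the latter by the dim 1458145_PM_at and higher in DBA/2J. Without any other single array Prkcd alone was called. In bulk RNA, fewer thalamic cells in a dissection and less of each RNA per cell cannot be told apart.

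In risperidone mice all 6 members were again lower in DBA/2J by their brightest probe sets, with a median difference of -0.36, but 0 were called by limma, against 1.02% of all genes. Of the 15 member probe sets 2 had an unadjusted p under 0.05, near the 9.43% of all probe sets: those of Lef1 (-0.53 ± 0.19, adjusted p = 0.311) and Ramp3 (-0.455 ± 0.20, adjusted p = 0.458). Tcf7l2 differed by -0.62 ± 0.47 and the lower-mean Prkcd probe set by -0.84 ± 0.42. Against A/J risperidone replicate 3 alone, a single array with no spread of its own, these became -1.285 and -2.05, Ramp3 -0.96 and Lef1 -0.71. With the DBA/2J share as a covariate several turned positive. Tcf7l2 became 0.23, the brighter and the lower-mean Prkcd probe set 0.91 and 1.42, and Ramp3 0.40 (limma adjusted p = 0.99977 each). The share is built from strain markers and largely follows strain, so this fit hardly separates the share from strain and settles no direction. Slc17a6 differed by -0.0775 and turned positive in 3 of the 16 fits that left out 1 array.

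Risperidone was then compared with control within each strain. In A/J mice limma called 0 of 6 members and 0% of all genes, while 2483 of 45037 probe sets had an unadjusted p under 0.05. Among the member probe sets 1 of 15 did so, Rora 1436326_PM_at (-0.38 ± 0.13, adjusted p = 0.695). Tcf7l2 differed by -0.015 ± 0.47 (95% interval -1.01 to 0.98), Slc17a6 by 0.075 ± 0.36 and Ramp3 by -0.34 ± 0.20. The lower-mean Prkcd probe set differed by -0.64 ± 0.42. With A/J risperidone replicate 3 alone, Tcf7l2 was 0.65 higher than in control mice, the lower-mean Prkcd probe set 0.565 and Ramp3 0.16. The sign of these 3 differences thus turned when the arrays with a DBA/2J share of 27.9% to 39.1% were left out. The array kept, replicate 3, was also the highest of its group for all 3 genes, so share and level cannot be told apart. For Tcf7l2 the difference with all arrays was itself near 0. With the share as a covariate the differences were 0.31, 0.21 and -0.022.

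In DBA/2J mice limma called 0 of 6 members, against 0.0643% of all genes, with 0 of 15 member probe sets at an unadjusted p under 0.05 beside 4806 of 45037 in all. Tcf7l2 was 1.46-fold higher after risperidone (0.54 ± 0.47, adjusted p = 0.695) and 0.15 higher on the log2 scale without DBA/2J risperidone replicate 4. Slc17a6 differed by 0.32 ± 0.36, and by -0.1025 without that array. The lower-mean Prkcd probe set was 0.485 ± 0.42 higher (limma adjusted p = 0.689), and Ramp3 differed by -0.215 ± 0.20 (limma adjusted p = 0.710).

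The difference between the strains in the risperidone effect was tested directly. Limma called 0 of 6 members and 0% of all genes, with 0 of 15 member probe sets and 4140 of all probe sets at an unadjusted p under 0.05. The DBA/2J effect exceeded the A/J effect by 0.56 ± 0.67 for Tcf7l2 and by 1.13 ± 0.59 for the lower-mean Prkcd probe set (95% interval -0.11 to 2.37, adjusted p = 0.570). For Tcf7l2 the 95% interval ran from -0.85 to 1.96, so these arrays do not settle its direction.

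**Figure D2:**
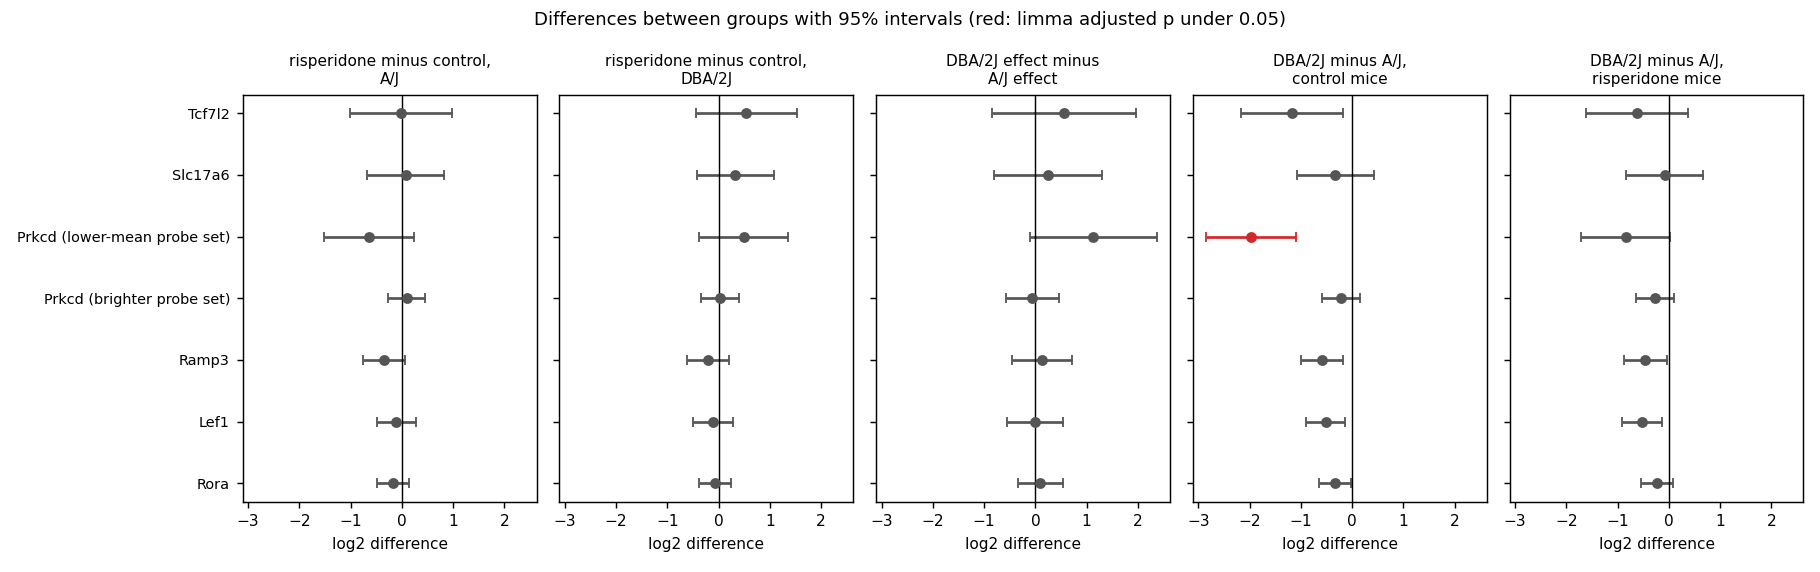
Points are log2 differences on the x axis with their 95% intervals from limma for the 5 comparisons (n = 4 per group) and 7 member probe sets, 1 per row; red marks an adjusted p under 0.05. The lower-mean Prkcd probe set in control mice (-1.97) is the red point, and every point of the strain comparisons lies left of 0.

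Variation within groups was described by each array's deviation from its group mean, with each gene at its brightest probe set. Over the 16 arrays, 15 of 15 pairs of members had a positive Pearson r, from 0.43 to 0.92 with a median of 0.67. Of these, 9 had a permutation p under 0.05 after adjustment over the 15 pairs. The members were chosen with earlier results of these data known, so the counts and p-values of pairs are not independent support. Tcf7l2 and Slc17a6 went together most closely (r = 0.919, rho = 0.903, permutation p = 0.00129, adjusted 0.0194). The other pairs with Tcf7l2 were Ramp3 (r = 0.797, rho = 0.585, adjusted permutation p = 0.0265), Rora (0.789, 0.696, 0.0249), Prkcd (0.694, 0.439, 0.0359) and Lef1 (0.669, 0.568, 0.0249). By rank, 3 pairs had an adjusted permutation p under 0.05, Tcf7l2 with Slc17a6, Tcf7l2 with Rora and Slc17a6 with Rora.

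The pairs were also read without the arrays farthest from the median. In this reading deviations were still taken from the mean of all 4 arrays of a group. The arrays left in a group that lost 1 then share an offset, so r and its permutation p are not purely within-group measures here. Without the 2 arrays farthest from the median of Tcf7l2, A/J control replicate 3 and DBA/2J risperidone replicate 4, r with Slc17a6 was 0.826 (adjusted permutation p = 0.154). With each pair treated so, 0 of 15 pairs had an adjusted p under 0.05 and r lay between 0.016 and 0.826. It was lower than with all arrays in 14 of 15 pairs and under 0.5 in 8, but Tcf7l2 with Ramp3 stayed at 0.80 (adjusted permutation p = 0.154), against 0.797 with all arrays. For Tcf7l2 with Slc17a6 r was 0.855 to 0.938 without each array in turn. No pair passed when A/J control replicate 2 or replicate 3 alone was left out, and 2 did so without replicate 4 of A/J control or replicate 3 of A/J risperidone. Of 15 pairs, 5 passed without the 3 A/J risperidone arrays of intermediate DBA/2J share. In A/J control, replicate 3 lay above its group mean by 1.74 for Tcf7l2 and replicate 2 below it, at -1.41.

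**Figure D3:**
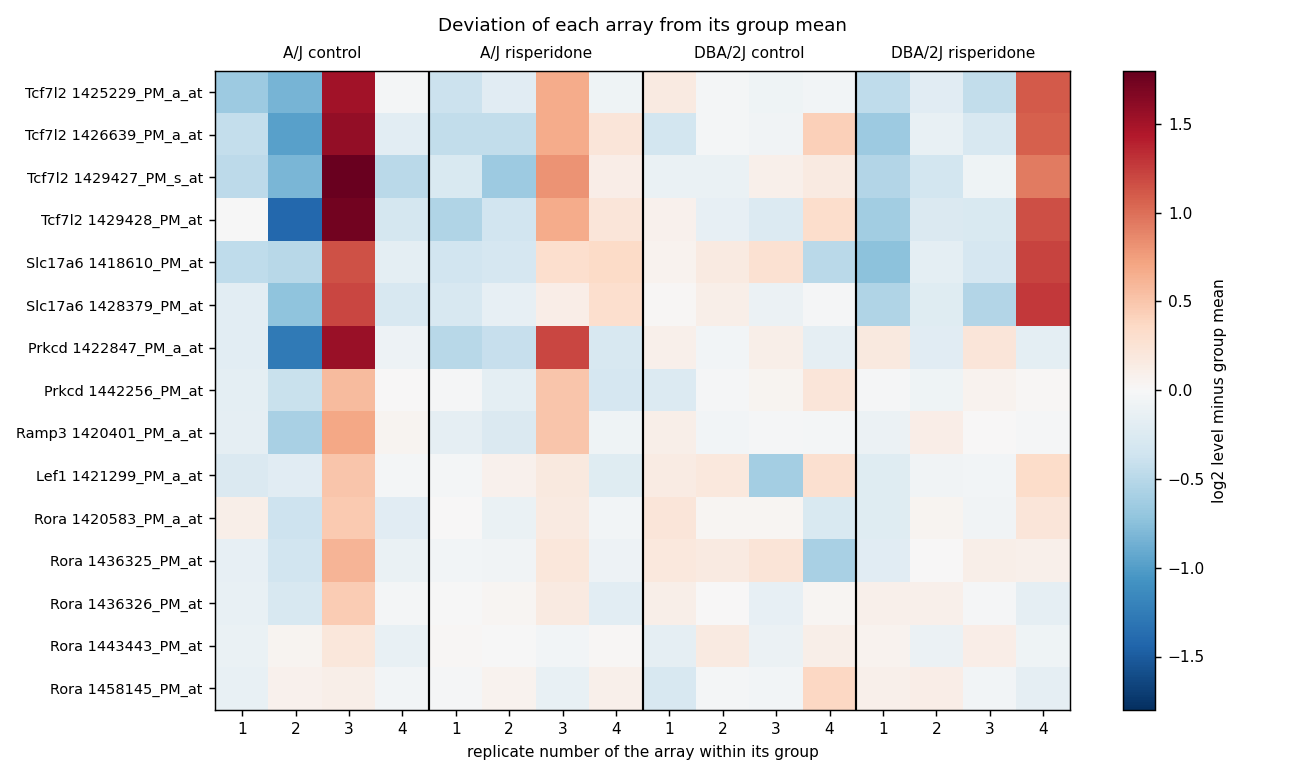
Columns are the 16 arrays by group and replicate number, rows the 15 member probe sets, and colour the log2 level minus the group mean. A/J control replicate 3 is positive in all 15 rows, and DBA/2J risperidone replicate 4 is at 0.94 or more in the Tcf7l2 and Slc17a6 rows and at 0.33 or less in the others.

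Each strain was also described alone. Among the 8 A/J arrays, 15 of 15 pairs had a positive r, from 0.707 to 0.956, and 8 had an exact permutation p under 0.05 after adjustment. Among the 8 DBA/2J arrays r ran from -0.667 to 0.934 with a median of 0.150, and 0 pairs passed the exact permutation test after adjustment, 2 having an unadjusted p under 0.05. There Tcf7l2 went with Slc17a6 (r = 0.934, exact permutation p = 0.0764) and Lef1 (0.655, exact permutation p = 0.00694). Its r was 0.070 with Ramp3 and 0.164 with Prkcd, and Prkcd ran opposite to Rora (-0.667) and Ramp3 (-0.571). The lower-mean Prkcd probe set had r = 0.943 with Tcf7l2 over the A/J arrays and -0.593 over those of DBA/2J. Any difference between the strains in these correlations was not tested.

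**Figure D4:**
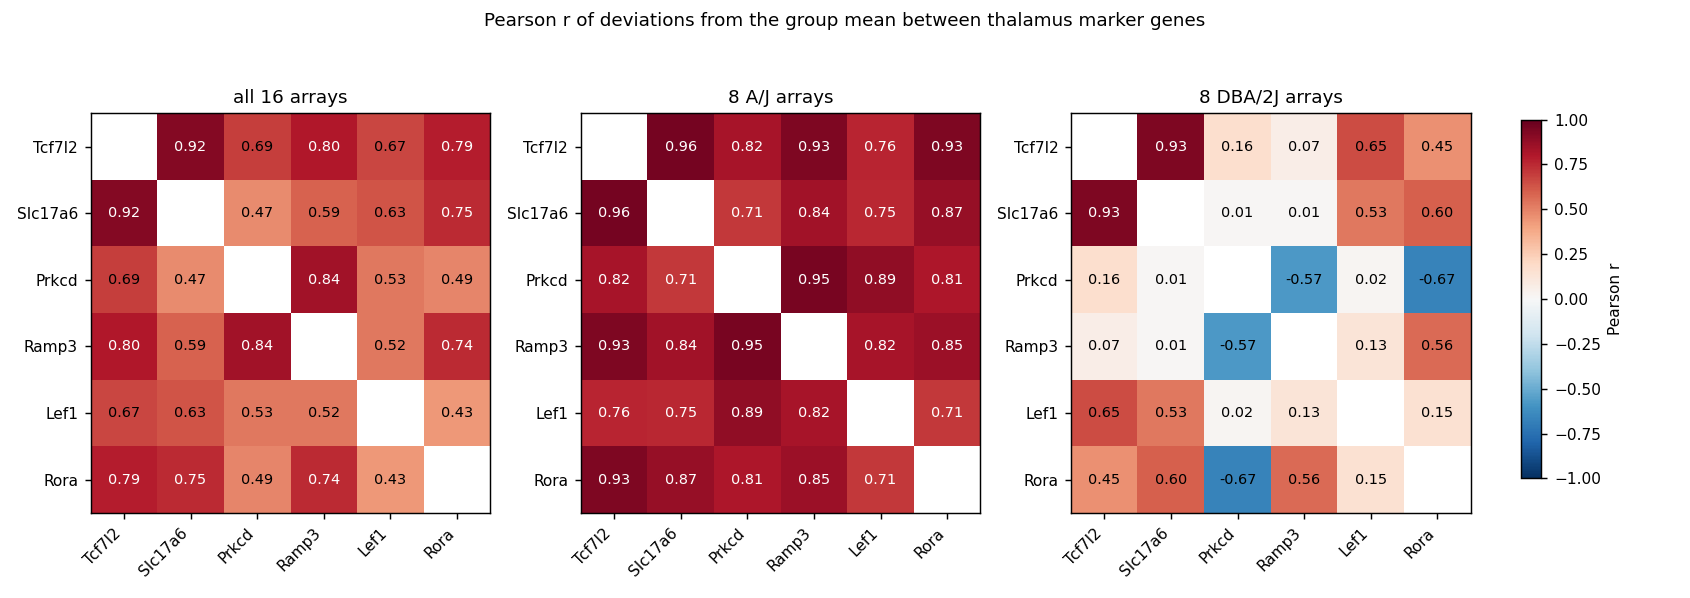
Each cell is the Pearson r between the within-group deviations of 2 member genes, over all 16 arrays (left), the 8 A/J arrays (middle) and the 8 DBA/2J arrays (right). A/J values are 0.71 and above, while Prkcd with Ramp3 (-0.57) and with Rora (-0.67) are negative in DBA/2J.

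Other genes known from the thalamus were read from a list of 16, of which 15 were measured. This list was chosen with earlier results of these data known, so its counts and its correlation with Tcf7l2 are not independent support. In control mice 14 of 15 were lower in DBA/2J, with a median difference of -0.40, and 5 were called by limma, against 5.31% of all genes. They were Rgs16 (a regulator of G protein signalling, -0.62, adjusted p = 0.0317), Ntng1 (the axon guidance protein netrin-G1, -0.60, 0.0429) and Plekhg1 (-0.83, 0.0371). The others were Vipr2 (a receptor of the peptide VIP, -0.80, 0.0277) and Calb2 (the calcium buffer calretinin, -0.94, 0.0322). Rgs16, Ntng1 and Plekhg1 were called by their brightest probe set only, not by their others. All 5 calls were lost without A/J control replicate 3 or 4 and without DBA/2J control replicate 1 or 2, and each stood in 5 to 11 of the 16 fits that left out 1 array. After risperidone limma called 0 of the 15 in A/J and 0 in DBA/2J, with 0 and 3 genes at an unadjusted p under 0.05. Over all probe sets 5.51% and 10.7% had such a p, but a gene counted here if any of its probe sets did. The smallest p in DBA/2J belonged to Lhx9, a homeobox gene of thalamic neurons (0.855, adjusted p = 0.175), and Calb2 (0.87, 0.224). Between the strains in risperidone mice 0 of 15 were called, with 1 at an unadjusted p under 0.05, against 9.43% of all probe sets.

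The mean level of these 15 genes moved with Tcf7l2. Over the 16 within-group deviations r was 0.898 and rho 0.768 (permutation p = 0.00185, adjusted over 10 lists 0.0185). Without the 2 farthest arrays, on deviations still from the full group means, r was 0.833 (adjusted permutation p = 0.120). It was 0.965 over the A/J arrays and 0.766 over those of DBA/2J (adjusted exact permutation p = 0.0521 and 0.443). Shox2, a homeobox gene of thalamic neurons, had the closest likeness to Tcf7l2 of all 45036 other probe sets, with r = 0.962 for 1438042_PM_at, whose level ran from 3.37 to 6.91.

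The mean levels of marker lists for neighbouring regions moved with Tcf7l2 too, though not every gene on them did. All 10 lists were chosen with earlier results of these data known, so their p-values are not independent support either. The habenula list, for the nucleus above the thalamus, had r = 0.591 (rho 0.476, adjusted permutation p = 0.0291), and the hypothalamus list, for the region below it, r = 0.750 (0.571, 0.0291). By brightest probe sets, single habenula genes had r from 0.049 (Tac2) to 0.719 (Pou4f1). Hypothalamus genes had r from -0.532 (Hcrt) to 0.777 (Pmch). Many of these genes were dim, as 3 of 5 habenula and 4 of 6 hypothalamus genes were below the array median in all arrays. The cortical neuron list ran opposite, at r = -0.830 (rho -0.638, adjusted permutation p = 0.0291). Of the 10 lists, 4 had an adjusted permutation p under 0.05, but 0 without the 2 farthest arrays or within either strain. By rank 0 of the 10 passed, the smallest adjusted permutation p being 0.0516 for the thalamus-enriched genes. No list passed when replicate 3 of either A/J group or replicate 4 of DBA/2J risperidone was left out, and 2 passed without its replicate 1. The striatal projection neuron list had r = 0.178, the choroid plexus and ependyma list -0.283 and the endothelial list 0.099 (adjusted permutation p = 0.887, 0.571 and 0.910). These means hide genes that went opposite ways. By brightest probe sets, striatal genes had r from -0.491 (Bcl11b) to 0.719 (Drd2). Choroid plexus and ependyma genes had r from -0.417 (Kcnj13) to 0.601 (Otx2). Both Drd2 and Otx2 were below the array median in all arrays.

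**Figure D5:**
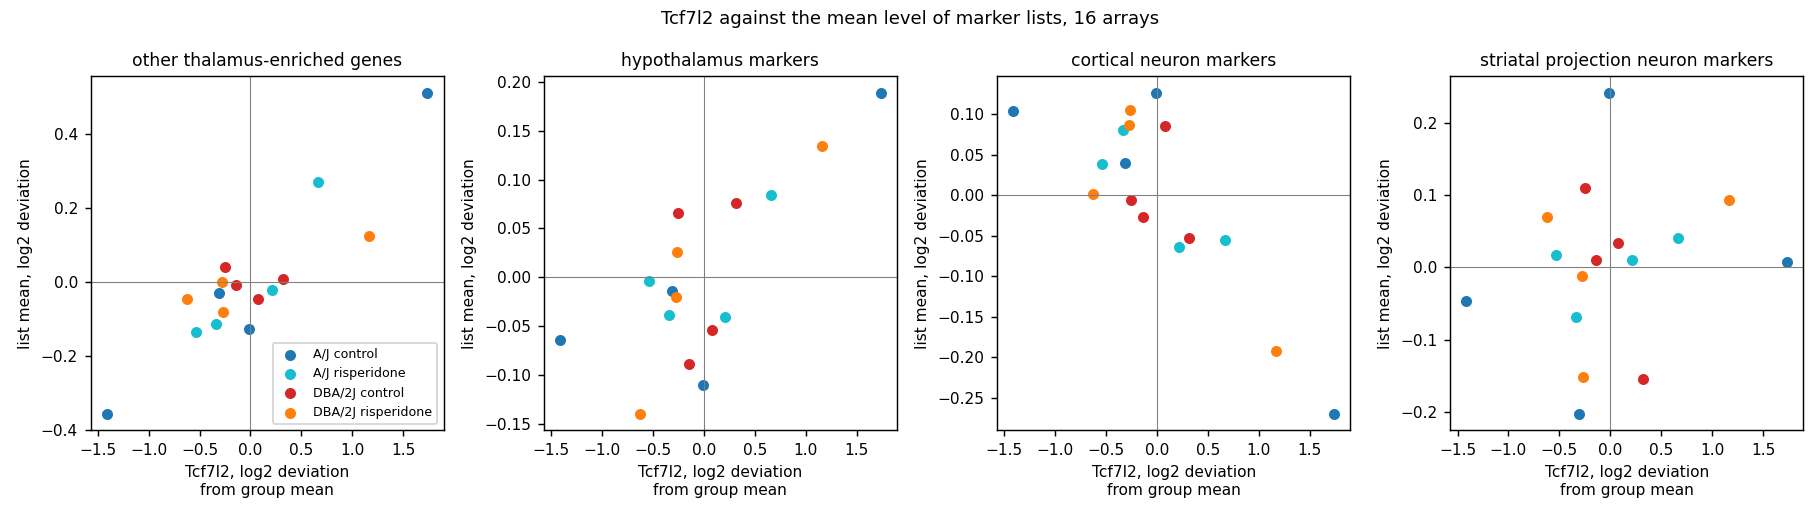
The x axis is the log2 deviation of Tcf7l2 from its group mean and the y axis that of the mean level of 4 marker lists, with 1 point per array coloured by group. A/J control replicate 3, at 1.74 on the x axis, lies at 0.51 for the other thalamus-enriched genes and at -0.27 for the cortical neuron markers.

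Markers of oligodendrocytes, which wrap axons in myelin, also differed between the strains. All 7 measured markers were lower in DBA/2J control mice, with a median of -0.545, and 3 were called by limma: Mog (-1.42, adjusted p = 6.28e-05), Mobp (-0.94, 0.00324) and Mag (-0.86, 0.0389). Mog and Mobp were called without each array in turn and Mag in 10 of 16 such fits. Mobp was called by 1436263_PM_at alone, which is not its brightest probe set. Over all genes 5.31% were called between the strains in control mice. The list's mean lay between 8.55 and 9.18 in A/J control and between 8.02 and 8.38 in DBA/2J control mice, and its r with Tcf7l2 was 0.661 (rho 0.697, adjusted permutation p = 0.0578). Its part in the members' strain difference was not tested.

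In control mice limma called 2 of 10 striatal, 1 of 5 habenula and 1 of 6 cortical genes between the strains, against 5.31% of all genes. The striatal genes Pde10a, a phosphodiesterase of projection neurons, and Ppp1r1b, which encodes DARPP-32, were called lower in DBA/2J by limma, by 0.59 and 0.61 on the log2 scale. The neuropeptide gene Tac2 of the habenula list (0.44, limma adjusted p = 0.0398) and the cortical transcription factor gene Fezf2 (0.47) were called higher. The calls of Ppp1r1b and Tac2 stood in 5 and 6 of the 16 fits that left out 1 array. The cortical list lay between 7.66 and 8.05 in A/J control and between 7.98 and 8.12 in DBA/2J control mice. By limma 0 choroid plexus, 0 hypothalamus and 0 endothelial genes were called, with 2, 0 and 2 at an unadjusted p under 0.05. Over all probe sets 17.7% had such a p, but a gene counted here if any of its probe sets did.

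Relatives of the members were read next. Of 14 family partners (other TCF, protein kinase C, vesicular glutamate transporter, RAMP, calcitonin receptor and ROR genes) 10 were measured. Their mean had r = 0.042 with Tcf7l2, but by brightest probe sets single partners had r from -0.724 (Prkcb) to 0.649 (Tcf7l1). In control mice 7 were higher and 3 lower in DBA/2J, and 1 was called by limma, against 5.31% of all genes. It was Ramp1, higher by 0.38 (1447474_PM_at, limma adjusted p = 0.0495) and called in 4 of 16 fits that left out 1 array. Slc17a7, the cortical glutamate transporter VGLUT1, had r = -0.557 with Tcf7l2. Of 14 Wnt and beta-catenin pathway genes 0 were called in any of the 5 comparisons by limma. From 0 to 5 had an unadjusted p under 0.05 by any probe set, against 5.51% to 17.7% of all probe sets. Their median strain difference in control mice was 0.0025. Ctnnb1, which encodes beta-catenin, differed by -0.36 at most in control mice (1450008_PM_a_at, adjusted p = 0.147), and the list's r with Tcf7l2 was 0.519 (adjusted permutation p = 0.0976).

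The other genes most like Tcf7l2 within groups were taken from 9940 genes whose brightest probe set exceeded the median level. The 6 members were left out of this ranking; Slc17a6 (r = 0.919) would have stood between Arsg and Amotl1. The 10 most like were Zfhx3 (r = 0.937), Arsg (0.928), Amotl1 (0.917), Nefh (0.913), Megf10 (0.912), Noa1 (0.904), Igdcc4 (0.901), Tmem163 (0.901), Gad2 (0.894) and Sash1 (0.885), over the 16 arrays; Amotl1 is also on the list of thalamus-enriched genes. Zfhx3, a homeodomain and zinc finger factor, read 8.07 in A/J control replicate 3 and 7.27 in DBA/2J risperidone replicate 4, against 6.15 to 7.24 in the other arrays. Nefh, the heavy neurofilament of large axons, read 8.62 and 8.45 in those arrays. Gad2, an enzyme that makes GABA, read 9.28 and 9.30 there and from 8.64 to 9.13 elsewhere. The most opposite were Plekhg5 (-0.897), Pgm2l1 (-0.883) and Atxn7l1os2 (-0.882). These 13 correlations were chosen as the extremes and carry no test. Among all 45036 other probe sets Slc17a6 ranked 12, Ramp3 151, Rora 180, Prkcd 531 and Lef1 667 from the top, and 146 probe sets had r over 0.8.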

How the data were processed

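The deposited table holds log2 expression levels per probe set, which the authors normalized with RMA (version not stated), per the submitters' processing notes; other upstream steps are not given in the sources used here. Leaving out 104 array controls of 45141 probe sets, 45037 were tested without a filter on level; 28898 name 1 gene, 551 several and 15588 none. No column of another sample was present (0). Names came from the platform table, and locations and promoters from RefSeq on GRCm38.p6.

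Means of 4 groups were fitted to 16 arrays with limma 3.58.1 in R 4.3.3 (two-sided, Benjamini-Hochberg over all probe sets in each of 5 comparisons, call at 0.05), after a test on simulated data. A gene is shown by the probe set with the highest mean. Correlations of within-group deviations used permutation within groups, 100000 draws for 16 arrays and exact enumeration for 8, two-sided, with NumPy 2.4.6. Where the 2 farthest arrays were left out, deviations stayed those from the full group means and were not centred again. Figures used matplotlib 3.10.9. The DBA/2J share used strain markers with a log2 difference of at least 1.5, a level of at least 7 and an adjusted p under 0.01.

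Named are all 6 members, landmarks, and up to 3 genes per list with the smallest p and any called. The 10 genes most like and 3 most opposite to Tcf7l2 are named too. Drd2, Tbr1, Neurod2, Emx1, Slc17a7, Shox2, Bcl11b, Kcnj13, Otx2, Prkcb and Tcf7l1 were added after their values were seen. The members and the 11 lists (105 entries, 93 measured) were chosen with earlier results of these data known. Arrays of the same replicate number were not paired, since only 1 or 2 of the 4 such pairs in each comparison correlated over 0.1 (mean r 0.025 to 0.074). That mean was nevertheless above the mean for unlike numbers (-0.025 to -0.0080) in each comparison. The best match had the same number for 6 of 8 arrays in DBA/2J and 5 of 8 between strains in control mice. It did so for 2 of 8 in A/J and 2 of 8 between strains in risperidone mice. The alternatives were other scalings, filters, probe set rules, limma options, a replicate block, covariates and leaving out arrays.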

Additional observations from a re-analysis of the deposited data

Results flagged for a closer look

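In groups of 4 arrays, the highest or lowest array was marked where its gap to the nearest other array exceeded Dixon's 95% critical value of 0.829 of the group's range. Chance marks about 1 in 20 groups, and 10 of 100 groups were marked here.

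Among member probe sets, A/J risperidone replicate 3 was far above its group for Prkcd 1422847_PM_a_at at 7.05 and for Rora 1436325_PM_at at 7.62. A/J control replicate 3 was so for Tcf7l2 1429427_PM_s_at at 4.68, and DBA/2J risperidone replicate 4 for Tcf7l2 1425229_PM_a_at at 5.55. In DBA/2J control mice, replicate 3 was far below the others for Lef1 at 3.80, replicate 4 for Rora 1436325_PM_at at 6.54, and replicate 1 was above them for Ramp3 at 5.61, in a group whose other arrays lay between 5.46 and 5.48.

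Among list means, the Wnt and beta-catenin pathway genes were high in DBA/2J control replicate 4 (6.40) and low in DBA/2J risperidone replicate 3 (6.28). The choroid plexus and ependyma markers were high in DBA/2J risperidone replicate 1 (5.78).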

How the results depend on the processing

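Most differences kept their direction and their side of the threshold, and many of those that turned were near 0. Larger ones turned too. The lower-mean Prkcd probe set went from -0.84 to 1.42 between strains in risperidone mice with the DBA/2J share as a covariate. In A/J it went from -0.64 to 0.565 after risperidone without replicates 1, 2 and 4. The cause of each change was not tested beyond the arrays left out. Risperidone minus control in A/J became 0.65 for Tcf7l2, 0.075 for Lef1, 0.16 for Ramp3 and 0.565 for the lower-mean Prkcd probe set without A/J risperidone replicates 1, 2 and 4. With the DBA/2J share as a covariate these were 0.31 (Tcf7l2), 0.035 (Lef1) and 0.21 (that Prkcd probe set). Tcf7l2 was 0.0091 after a second quantile normalization and Prkcd -0.28 by the mean of its probe sets. In DBA/2J, Prkcd became -0.039 with the share. The strain difference in the effect became -0.105 for Tcf7l2, -0.3775 for Ramp3, -0.0675 for Rora and -0.08 for the lower-mean Prkcd probe set without those 3 arrays. It became -0.24 for Ramp3 with the share and 0.535 (mean of probe sets) or 0.024 (array weights) for Prkcd. For Lef1 it became 0.032 (second quantile normalization), 0.0125 (median centring) or 0.034 (array weights). Between strains in risperidone mice, the share gave 0.23 for Tcf7l2, 0.91 and 1.42 for the Prkcd probe sets and 0.40 for Ramp3. The share itself largely follows strain, so these signs settle no direction. With Tcf7l2 as a covariate, probe sets called numbered 4 for risperidone in DBA/2J, against 18, and 940 for strain in control mice, against 1745. Members called for strain in control mice were 0 with the brightest probe set of each gene. Of 15 member pairs, 5 passed without the 3 arrays, 0 without the 2 farthest and 0 in DBA/2J alone, where r was -0.57 for Prkcd with Ramp3 and -0.67 with Rora. Of 10 lists, 0 passed under each of these and in A/J alone. For Tcf7l2 with family partners r was -0.36 (mean of probe sets), -0.16 (replicate block) and -0.12 (DBA/2J), and with endothelial markers -0.0065 without the 2 farthest arrays. With the replicate number as a block, 1 member was called for strain in control mice and 0 in each other comparison, with 11 pairs and 5 lists, so the block changed no call of a member.

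Leaving out each array in turn gave these ranges. Members called for strain in control mice numbered 1 to 4, pairs 0 to 12 and lists 0 to 5. Risperidone minus control in A/J ran from -0.49 to 0.56 for Tcf7l2, -0.074 to 0.28 for Prkcd, -0.17 to 0.48 for Slc17a6 and -0.19 to 0.0575 for Lef1. In DBA/2J it ran from -0.048 to 0.105 for Prkcd and -0.10 to 0.50 for Slc17a6. The strain difference in the effect ran from -0.022 to 1.03 for Tcf7l2, -0.25 to 0.11 for Prkcd, -0.18 to 0.49 for Slc17a6, -0.22 to 0.084 for Lef1, -0.11 to 0.32 for Ramp3 and -0.058 to 0.22 for Rora. DBA/2J minus A/J for Slc17a6 ran from -0.57 to 0.076 in control and -0.50 to 0.10 in risperidone mice. For Tcf7l2, r ran from -0.025 to 0.096 with family partners and -0.0035 to 0.13 with endothelial markers. Probes near background, such as that of Lef1, limit what these arrays resolve.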
